A study of Mus musculus with 6 samples.

Results

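The genes described here encode the hnRNP and SR splicing proteins together with a few core parts of the spliceosome. They were taken by name from the gene symbols given for the array: every probe set with a single symbol that starts with Hnrnp (19 genes) or Srsf (10 genes), and those of 15 further genes, Tra2a, Tra2b, Ptbp1, Ptbp2, Ptbp3, Pcbp1, Pcbp2, U2af1, U2af2, Sf3b1, Sf3a1, Prpf8, Ddx23, Snrnp70 and Snrnp200. This gave 44 genes and 133 probe sets, of 18193 genes with a single symbol and 45037 probe sets in all. A probe set is a group of short probes for 1 transcript region, and all probe sets of a gene were kept, since those of Hnrnpab and Ddx23 disagree. The genes were chosen by name, but with the induced minus uninduced differences of these same arrays already known, so those differences are given as a description, with no p for any gene and nothing inferred from how many pass a threshold. The naming rule did not use differences between clones, and these were tested. Earlier results of these data were, however, known when the members and the gene lists further below were chosen.

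The arrays measured mRNA levels in EB3 mouse embryonic stem (ES) cells. They carry a human coding sequence of GTF2IRD2, with a FLAG tag, in the ROSA26 locus under a promoter that tetracycline represses. GTF2IRD2 is a TFII-I family transcription factor. The methods name its longest annotated coding sequence. The insert listed in the paper's supplement is, however, far shorter than those listed for the related genes GTF2I and GTF2IRD1. Which part of the full-length protein was induced is therefore not established here. The paper's own RT-PCR of clones A3, A4 and A5 shows the GTF2IRD2 transcript rising in each after 24 h without tetracycline. Its level at 24 h was highest in A3. The induced cultures had been grown for 24 h without tetracycline, and the uninduced cultures with it. Each of 3 clones, A3, A4 and A5, gave 1 array of each kind, which makes 3 induced and 3 uninduced arrays. All 6 carry the transgene, so no array shows the line without it, and removal of tetracycline and expression of the transgene cannot be told apart. Each clone was measured in 1 culture per condition. The values described here do not measure the transgene itself.

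Pre-mRNA splicing removes introns in the spliceosome, which is built from the U1, U2, U4, U5 and U6 small nuclear ribonucleoproteins (snRNPs). SR proteins bind exonic enhancers and mostly help nearby splice sites to be used, whereas hnRNPs coat nascent transcripts and often keep splice sites from being used. The balance of both sets which exons are joined, and many of these proteins also control their own mRNAs through alternative exons whose inclusion leads to decay. Dividing cells such as stem cells need these proteins in large amounts, and Ptbp1 in particular is known for holding back neural exons in cells that are not neurons.

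Across the 6 arrays, medians of all probe sets lay between 5.03 and 5.06 on the log2 RMA scale (RMA is a normalised array intensity on which 1 unit is a 2-fold difference), and arrays correlated with each other at 0.996 to 0.998. ES cell markers such as Pou5f1 and Nanog averaged 11.83 to 11.92 per array over 10 genes, and fibroblast and feeder markers 4.49 to 4.59 over 10 genes. Of the 133 probe sets, 119 had a mean of at least 5. In bulk RNA, fewer cells of a type and less RNA per cell cannot be told apart. Probe sets of 1 gene share their source and are not replicates.

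Over the family, differences between induced and uninduced cultures were small and of both signs. The mean difference, induced minus uninduced over the 3 clones, ran from -0.31 to 0.41 over the 133 probe sets with a median of 0.0053 on the log2 scale, against a median of -0.0037 over all 45037 probe sets. Of the 133, 70 had a higher and 63 a lower mean in induced cultures, against 21689 higher and 23348 lower over all probe sets. The sign was the same in all 3 clones at 35 of the 133 (26.3%), 18 of them higher and 17 lower, against 25.9% over all probe sets. The 95% interval of a difference, fitted without a clone block, reached a median of 0.18 to either side among these 133.

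With limma and Benjamini-Hochberg adjustment over all probe sets, 0 of the 133 and 0% of all probe sets passed an adjusted p of 0.05 between induced and uninduced arrays. At an unadjusted p under 0.05 there were 2 of the 133 and 1404 of 45037, with the clone as a block 2 and 2597, and with the methods' t-test 1 and 1681, each with 0 after adjustment. These counts describe the table only, since the differences were known when the genes were chosen. Induced and uninduced arrays did not overlap at 7 of the 133 (5.26%), against 7.95% of all probe sets. Those 7 were both probe sets of Ddx23, 2 of Hnrnpab and 1 each of Hnrnpd, Ptbp3 and Snrnp70. A mean difference of over 1.2-fold occurred at 2 of the 133 (1.504%), in Hnrnpab and Ddx23, against 1.28% of all probe sets, and one of over 1.5-fold at 0, against 5 of all 45037.

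**Figure D1:**
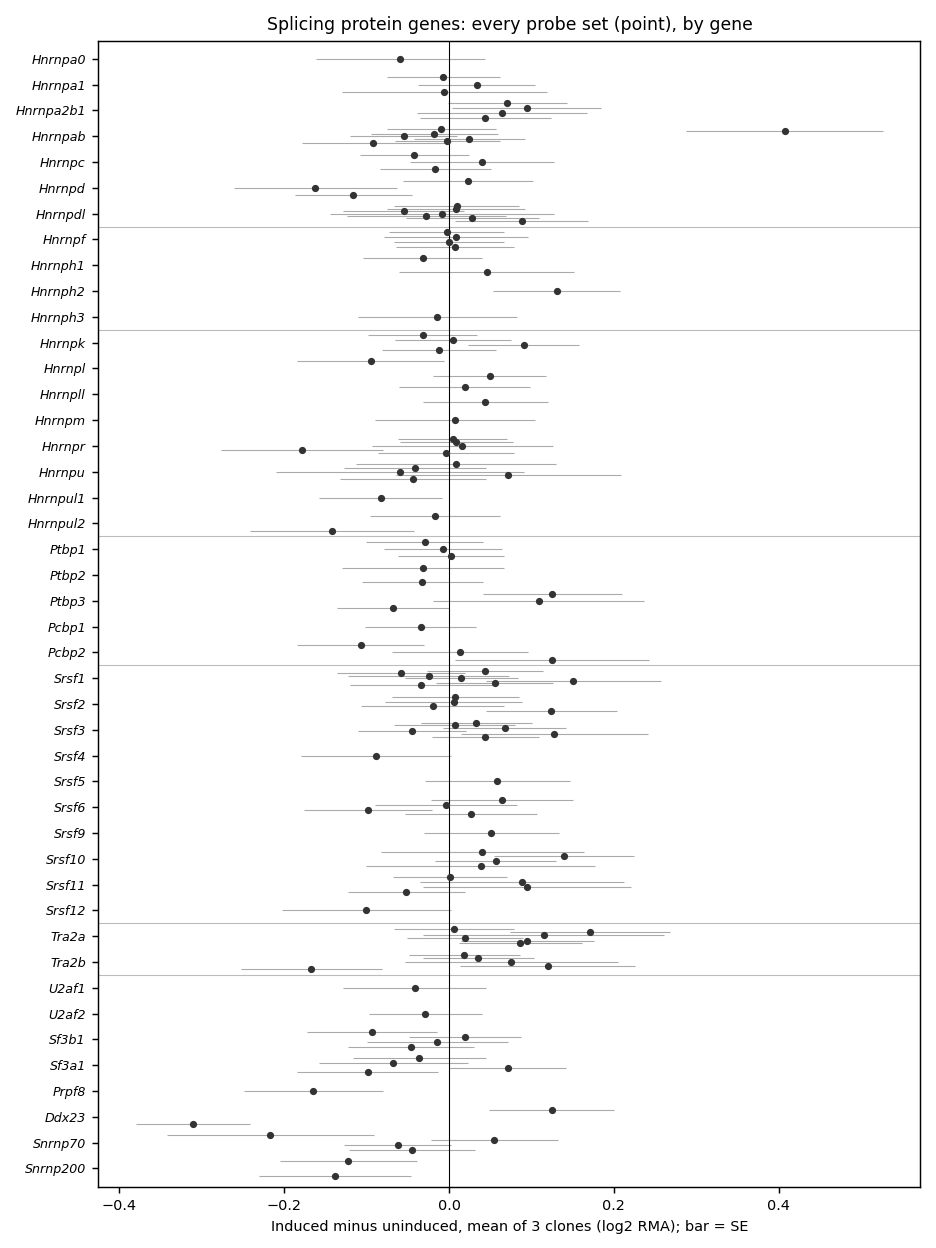
Mean difference, induced minus uninduced over 3 clones (log2 RMA, x axis), of every probe set (point) of each of the 44 genes (rows). Bars are limma's standard error without pairing by clone, and grey lines part the role groups. All points lie between -0.31 (Ddx23) and 0.41 (Hnrnpab), and most genes with several probe sets have points on both sides of 0.

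Hnrnpab encodes an hnRNP of the A/B group that binds both RNA and DNA, and it held the highest difference of the 133. Probe set 1426114_at measured 13.49, 13.33 and 13.28 in the induced cultures of A3, A4 and A5, against 12.97, 13.18 and 12.73 in the uninduced cultures of the same clones. Every induced culture was above every uninduced one, though in A4 the gap was small. The differences were 0.52 (A3), 0.14 (A4) and 0.56 (A5), with a mean of 0.41 ± 0.12 (SE, n = 3 each) or 1.33-fold. This and all later SEs of induction differences are limma's. They draw the variance of a probe set toward that of all probe sets and ignore the pairing by clone. An SE can therefore exceed the spread of the values printed beside it. The other 6 probe sets of Hnrnpab differed by -0.09 to 0.02 on average. Of those, 1455855_x_at measured 13.03, 13.03 and 13.01 in induced cultures of A3, A4 and A5, against 13.04, 13.00 and 13.03 in uninduced ones. These groups overlapped fully. Probe set 1448144_at had induced values of 9.93, 9.99 and 9.98, against uninduced values of 10.04, 9.995 and 10.03, so it did not overlap in the opposite direction, with a mean difference of -0.06 ± 0.06 (SE). Thus 1 probe set of 7 stood apart, and which transcript regions these probe sets cover was not examined.

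Ddx23 encodes the DEAD-box helicase of the U5 snRNP that helps U6 replace U1 at the 5' splice site, and it held the lowest difference. Probe set 1439952_at measured 4.92, 4.99 and 4.94 in induced A3, A4 and A5, against 5.22, 5.33 and 5.23 in uninduced A3, A4 and A5. The induced cultures were all lower, by close amounts: -0.30, -0.34 and -0.29, with a mean of -0.31 ± 0.07 (limma SE without pairing, n = 3 each) or 0.806-fold. Its other probe set, 1430050_at, went the other way. It measured 4.67, 4.67 and 4.78 in induced cultures, against 4.64, 4.64 and 4.49 in uninduced cultures, a mean difference of 0.12 ± 0.08 (SE) that came mostly from A5 (0.30, against 0.04 in A3 and 0.04 in A4). Both probe sets of Ddx23 lay near the array medians of 5.03 to 5.06, so the 2 readings of this gene opposed each other at dim signal.

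**Figure D2:**
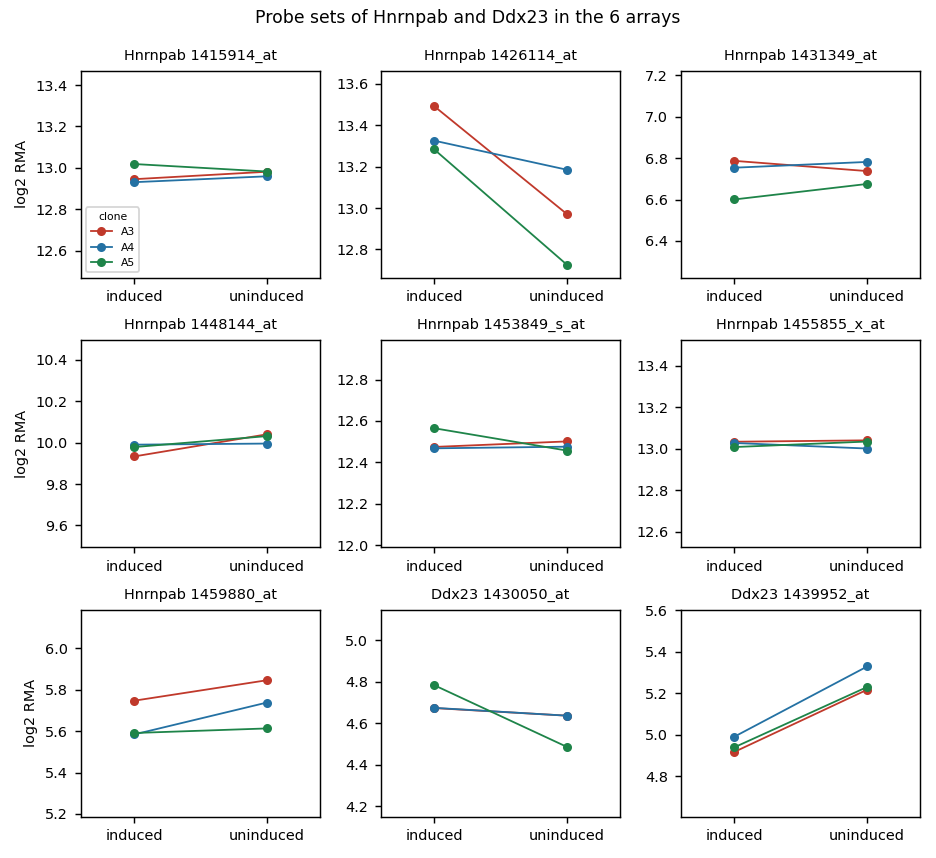
log2 RMA values of the 7 probe sets of Hnrnpab and the 2 of Ddx23 in the induced (left) and uninduced (right) culture of clones A3, A4 and A5, each y axis spanning the same number of log2 units. Hnrnpab 1426114_at is higher in all 3 induced cultures while its other 6 probe sets are nearly flat, and the 2 Ddx23 probe sets slope in opposite directions (the lines of A3 and A4 coincide at 1430050_at).

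The role groups below were drawn after values had been seen, and probe sets of 1 gene are not replicates, so counts by group are descriptions. The hnRNP A/B and C/D group, to which Hnrnpab belongs, holds 7 genes with 28 probe sets, 13 higher and 15 lower with a median of -0.0040. Hnrnpab accounts for 2 of the higher and 5 of the lower ones. Hnrnpa2b1, whose product binds pre-mRNA with hnRNP A1 and favours exon skipping, was higher on average at all 4 of its probe sets, by 0.04 to 0.09, but lower in A5 at 3 of them. Hnrnpa1 differed by -0.01 to 0.03 over 3 probe sets. Hnrnpa0 (-0.06, 1 probe set) and Hnrnpc, which binds uridine-rich stretches (-0.04 to 0.04, 3 probe sets), also lay within 0.06 of 0.

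Hnrnpd, known for binding AU-rich elements of unstable mRNAs, was the lowest of this group. Its probe set 1457568_at measured 6.76, 7.05 and 7.11 in induced A3, A4 and A5, against 7.12, 7.10 and 7.19 in uninduced A3, A4 and A5, a mean difference of -0.16 ± 0.10 (SE). Most of it came from A3, and the groups overlapped. At the dim 1458273_at the induced values were 3.94, 3.96 and 4.04, against uninduced values of 4.04, 4.08 and 4.16, without overlap and with a mean difference of -0.12 ± 0.07 (SE). The brightest Hnrnpd probe set differed by 0.02. Its paralogue Hnrnpdl differed by -0.06 to 0.09 over 7 probe sets, the highest being 1456698_s_at.

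The F/H group binds runs of G bases and counts 4 genes with 8 probe sets, 4 higher and 4 lower. Hnrnpf differed by less than 0.01 at each of its 4 probe sets, Hnrnph1 by -0.03 and 0.05 and Hnrnph3 by -0.01. Hnrnph2 was the highest of them: 10.45, 10.33 and 10.45 in induced A3, A4 and A5, against 10.22, 10.23 and 10.38 in uninduced A3, A4 and A5, a mean difference of 0.13 ± 0.08 (SE). All 3 clones were higher when induced, but induced A4 was below uninduced A5, so the groups overlapped.

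Among the K, L, M, R and U proteins, 8 genes with 22 probe sets, 11 were higher and 11 lower with a median of 0.00035. Hnrnpk, which binds C-rich RNA, differed by -0.03 to 0.09 over 4 probe sets. Hnrnpl, which binds CA repeats, differed by -0.10 and 0.05, its relative Hnrnpll by 0.02 and 0.04, and Hnrnpm by 0.01. Hnrnpr ran from -0.18 to 0.02 over 5 probe sets, the lowest being 1438807_at, where A4 alone gave -0.44. Hnrnpu, a scaffold protein of the nuclear matrix that also binds pre-mRNA, differed by -0.06 to 0.07 on average over 5 probe sets. Single clones went further there: 1434390_at differed by -0.47 (A3), 0.04 (A4) and 0.25 (A5), and 1434391_at by -0.02, -0.19 and 0.43. These clones disagreed in sign, so their means lay near 0. Of the hnRNP U relatives, Hnrnpul1 differed by -0.08 and Hnrnpul2 by -0.02 and -0.14. The lower one, 1434551_at, measured 9.19, 9.06 and 9.30 in induced A3, A4 and A5, against 9.37, 9.16 and 9.45 in uninduced A3, A4 and A5, lower in each clone though the groups overlapped.

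The polypyrimidine tract and poly(C) binding proteins, 5 genes with 12 probe sets, had 5 higher and 7 lower and a median of -0.018. Ptbp1, which represses many exons in stem cells, differed by -0.03 to 0.0028 over 3 probe sets, and its neural counterpart Ptbp2 by -0.03 at both of its probe sets. Ptbp3 ran from -0.07 to 0.13. At its 1424084_at the clones differed by 0.47 (A3), 0.10 (A4) and -0.25 (A5). Pcbp1 differed by -0.03. Pcbp2 ran from -0.11 at 1421743_a_at, lower in each clone, to 0.12 at 1445381_at, lower in A4 only.

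The SR proteins, 10 genes with 33 probe sets, were more often higher than lower on average: 23 higher and 10 lower, with a median of 0.033. The median was 0.029 in A3 and 0.030 in A5, but -0.0038 in A4, and 8 of the 33 had the same sign in all 3 clones. Srsf1, the best studied SR protein, ran from -0.06 to 0.15 over 7 probe sets. At its highest, 1452430_s_at, the clones differed by 0.28 (A3), -0.15 (A4) and 0.33 (A5). Srsf2 ran from -0.02 to 0.12 over 4 probe sets, and Srsf3, the smallest SR protein, from -0.05 to 0.13 over 6. Its highest, 1438215_at, measured 6.79, 6.93 and 6.85 in induced A3, A4 and A5, against 6.78, 6.92 and 6.48 in uninduced A3, A4 and A5. That difference of 0.13 ± 0.11 (SE) came almost wholly from A5, whose uninduced array was the lowest of the 6.

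The other SR genes stayed within similar limits. Srsf10, which turns into a splicing repressor when it loses its phosphates, was higher on average at all 4 of its probe sets, by 0.04 to 0.14, with A4 lower at 3 of them. Srsf11 ran from -0.05 to 0.09 over 4 probe sets and Srsf6 from -0.10 (1447898_s_at) to 0.06 (1416720_at) over 4. Srsf5 (0.06), Srsf9 (0.05), Srsf4 (-0.09) and Srsf12 (-0.10) have 1 probe set each, the last with a mean under 5.

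Tra2a and Tra2b encode SR-like proteins that bind GA-rich exonic enhancers. Of their 11 probe sets 10 were higher on average in induced cultures, with a median of 0.075, and the median was -0.0032 (A3), 0.056 (A4) and 0.11 (A5). Only 3 of the 11 had the same sign in each clone, and 4 had a mean under 5. Tra2a ran from 0.0064 to 0.17 over 6 probe sets. Its brightest, 1454725_at, differed by 0.11 (A3), 0.04 (A4) and -0.09 (A5), a mean of 0.02. Tra2b ran from -0.17 to 0.12 over 5, the second widest span among genes with 3 or more probe sets after that of Hnrnpab. Its 1444509_at measured 5.35, 5.24 and 5.35 in induced A3, A4 and A5, against 5.34, 4.96 and 5.27 in uninduced A3, A4 and A5, and its 1446496_at 4.33, 4.17 and 4.14, against 4.40, 4.27 and 4.48. The first was higher and the second lower in each clone. The bright probe sets of Tra2b, 1419543_a_at and 1427432_a_at, differed by 0.02 and 0.04.

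The spliceosome components, 8 genes with 19 probe sets, were more often lower than higher on average: 4 higher and 15 lower, with a median of -0.046. The median was below 0 in A3 (-0.07) and A5 (-0.08) but not in A4 (0.04). Like the SR proteins, this group was drawn after values had been seen, so its counts are a description. Prpf8, the scaffold of the U5 snRNP at the heart of the spliceosome, measured 11.73, 11.70 and 11.76 in induced A3, A4 and A5, against 12.01, 11.74 and 11.94 in uninduced A3, A4 and A5. Each clone was lower when induced and A4 hardly so, with a mean difference of -0.16 ± 0.08 (SE). Snrnp200, the helicase that unwinds U4 from U6, differed by -0.14 and -0.12.

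Sf3b1, the U2 snRNP protein that holds the branch point region, ran from -0.09 to 0.02 over 4 probe sets, and Sf3a1, also of the U2 snRNP, from -0.10 to 0.07 over 4. U2af1, which reads the AG at the 3' splice site, differed by -0.04, and U2af2, which binds the pyrimidine tract, by -0.03. Snrnp70, the U1 protein of 5' splice site recognition, ran from -0.22 to 0.05. Its lowest, 1429009_at, differed by -0.54 (A3), 0.09 (A4) and -0.21 (A5). Uninduced A3 was the highest array there (6.83) and induced A3 the lowest (6.29).

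**Figure D3:**
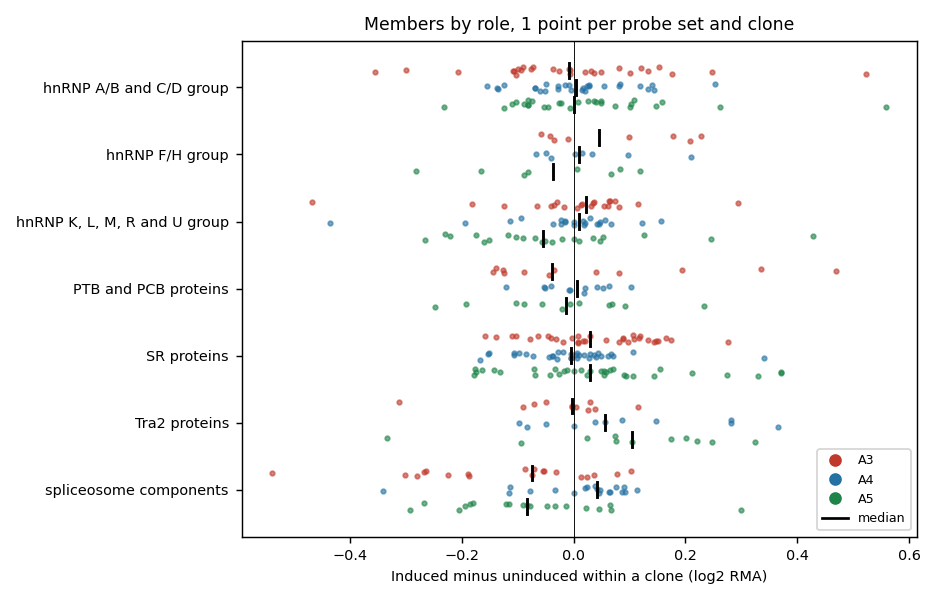
Induced minus uninduced difference within a clone (log2 RMA, x axis) of each probe set (point), by role group (rows) and clone (red A3, blue A4, green A5), with the median of each as a black line. The spliceosome medians are -0.07 (A3), 0.04 (A4) and -0.08 (A5), and the Tra2 medians -0.0032, 0.056 and 0.11, all small beside the spread of the points.

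Probe sets of 1 gene often had mean differences of both signs. Of the 31 genes with 2 or more probe sets, 24 had both higher and lower ones. The quartiles of the 133 differences were -0.041 and 0.046, so many of these signs rest on small differences. The share over all genes was not counted, so the 24 are a description. With the brightest probe set standing for each gene, 20 genes were higher and 24 lower in induced cultures, with a median difference of -0.016. Among genes with 3 or more probe sets, the widest spans were 0.50 in Hnrnpab, 0.29 in Tra2b, 0.27 in Snrnp70, 0.23 in Pcbp2 and 0.21 in Srsf1, and the 2 probe sets of Ddx23 lay 0.44 apart. Within single clones, a difference of over 1.2-fold occurred at 14 (A3), 6 (A4) and 13 (A5) of the 133 probe sets (10.5%, 4.51% and 9.77%), against 11.6%, 7.69% and 11.2% of all probe sets.

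The clones were compared at both conditions together, as the mean of a clone's induced and uninduced array. Over the 133 probe sets the range of the 3 clone means was 0.016 to 0.46 log2 units with a median of 0.13, against a median of 0.14 over all probe sets. limma's F-test of the clone term called 0 of the 133 at an adjusted p under 0.05, against 2.18% of all 45037 probe sets (980), and an unadjusted p under 0.05 was found at 10 of the 133 (7.52%), against 15% of all. Each clone has 1 induced and 1 uninduced array and no repeat culture in either condition. These p-values therefore set clone gaps against how far the induction difference varies between clones, not against a spread of repeat cultures. Among pairs of clones, A3 minus A4 called 1 of the 133 (2.94% of all probe sets), A3 minus A5 called 0 (1.68%) and A4 minus A5 called 0 (0.0511%).

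The call belonged to Srsf10, at probe set 1449121_at. It measured 8.64 induced and 8.55 uninduced in A3, against 8.16 and 8.20 in A4, and 8.31 and 8.24 in A5. Both arrays of A3 were above all 4 others, and A4 and A5 lay close to each other. A3 exceeded A4 by 0.41 ± 0.09 (SE, limma adjusted p = 0.0456, n = 1 induced and 1 uninduced array each). In the same limma fit A3 exceeded A5 by 0.32 (adjusted p = 0.140), while A4 minus A5 was -0.09 (adjusted p = 0.860). The call did not survive leaving out any 1 of the 6 arrays or both arrays of A5, each of which gave 0 calls for this pair. Conversely, the clone F-test called 3 of these probe sets (Srsf10 1449121_at, Tra2a 1442886_at and Hnrnpu 1423050_s_at) when probe sets averaging under 5 were left out. With an intensity trend in limma's variance prior it called 6, those 3 with Srsf10 1418526_at, Hnrnpu 1423051_at and Hnrnpa0.

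At the other Srsf10 probe sets the clones lay closer together. Clone means of A3, A4 and A5 were 9.64, 9.31 and 9.39 at 1418526_at (F-test adjusted p = 0.221 in limma), 9.999, 9.86 and 9.89 at 1418527_a_at, and 10.21, 10.31 and 10.22 at 1423982_at. A3 was highest at the first 2 of these and lowest at the last.

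Next in order of the F-test came Tra2a 1442886_at, with 6.09 induced and 6.09 uninduced in A3, against 5.97 and 5.82 in A4, and 5.74 and 5.54 in A5. The clones did not overlap, in the order A3, A4, A5 (F-test adjusted p = 0.0897 in limma, as for Srsf10), yet 4 of the other 5 Tra2a probe sets had clone means within 0.10 of each other. Hnrnpu 1423050_s_at measured 12.19 and 12.16 in A3, against 11.84 and 11.81 (A4) and 12.08 and 12.11 (A5), induced value first (adjusted p = 0.140). Here A4 was the low clone, and A4 had the lowest clone mean at all 5 probe sets of Hnrnpu.

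The remaining probe sets with the smallest F-test p are given without a call. Hnrnpa0, 1 probe set, had 10.82 and 10.83 in A3, against 10.998 and 11.06 (A4) and 11.04 and 11.15 (A5), and Hnrnph3 9.17 and 9.18 in A3, against 9.36 and 9.40 (A4) and 9.42 and 9.41 (A5). A3 was below all other arrays in both. Hnrnpdl 1428224_at was lowest in A5, with clone means of 8.68 (A3), 8.63 (A4) and 8.33 (A5). Hnrnpul2 1434551_at (9.28, 9.11 and 9.37) and Pcbp2 1445381_at (6.28, 6.04 and 6.34) were lowest in A4, and Srsf12 (2.76, 2.63 and 2.49) in A5. Their adjusted p in limma ran from 0.24 to 0.32.

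**Figure D4:**
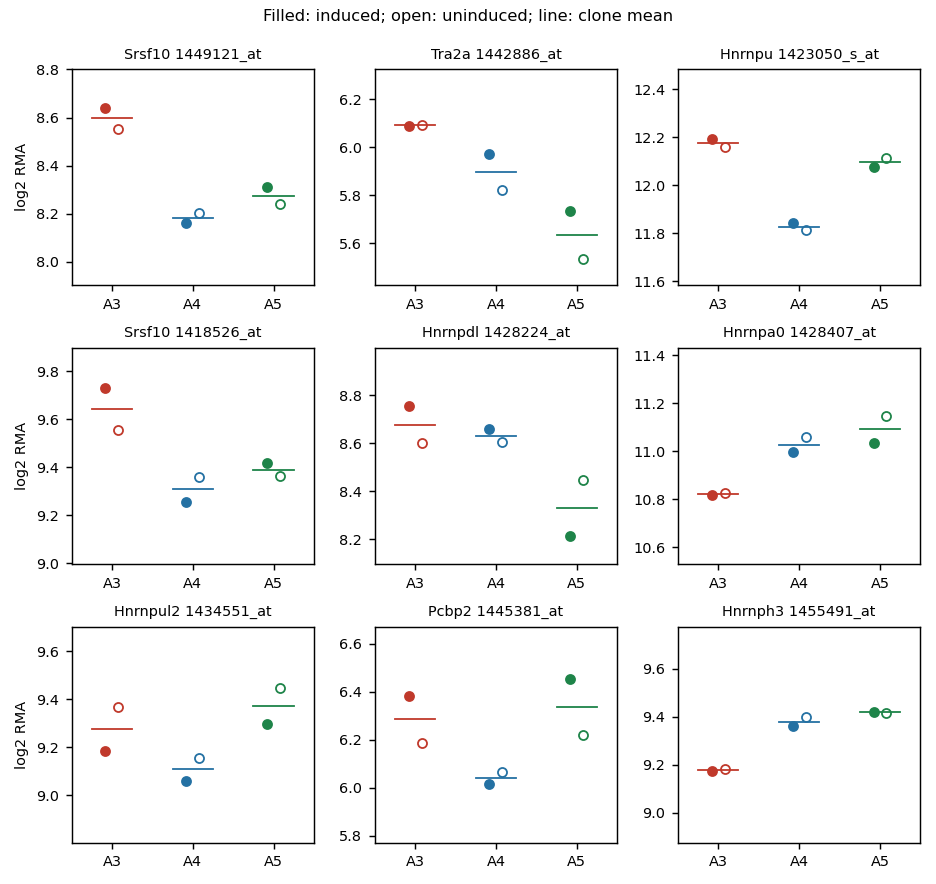
log2 RMA values of the 9 probe sets with the smallest clone F-test p in clones A3, A4 and A5, with induced arrays filled, uninduced arrays open and the clone mean as a line; each y axis spans the same number of log2 units. Srsf10 1449121_at is highest in both A3 arrays (8.64 and 8.55), Hnrnpu 1423050_s_at lowest in both A4 arrays (11.84 and 11.81) and Hnrnpa0 lowest in both A3 arrays (10.82 and 10.83).

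Over the 133 probe sets, the clone mean was lowest in A4 at 64 (48.1%), in A5 at 36 (27.1%) and in A3 at 33 (24.8%), against 32.5%, 28.5% and 39.0% over all probe sets. The 2 arrays of A4 were both below the other 4 arrays at 19 of the 133 (14.3%), against 9.65% over all probe sets, and among those with a mean of at least 5 at 16.0%, against 13.1% of all such probe sets. These shares are descriptions, since probe sets of 1 gene and genes on 1 array are not independent. Values that set A3 apart elsewhere are those of the trophoblast markers, a list chosen with earlier results of these data known. Of their 14 probe sets, 5 (35.7%) were called between clones by limma's F-test, against 2.18% of all probe sets. All 5 belong to 2 of the 6 genes, Tfap2c and Eomes, and probe sets of 1 gene are not replicates. Per-array means over the 6 genes were 5.76 to 5.87 in A3, against 6.23 to 6.30 (A4) and 6.14 to 6.20 (A5). Tfap2c, a trophoblast and germ cell factor, had a clone mean of 8.32 in A3, against 9.42 for A4 and 9.10 for A5, and Eomes, another trophoblast factor, of 6.01, against 6.88 and 6.64. The other trophoblast genes were not called at their brightest probe set: Cdx2, which defines the lineage, had clone means of 4.63 (A3), 4.77 (A4) and 4.86 (A5) with overlapping arrays, Hand1 4.95, 5.18 and 5.12, and Krt8 7.11, 7.25 and 7.49, while Elf5 was lowest in A5 (3.88, 4.08 and 3.80). The added poly(A) spike transcripts averaged 6.46 induced and 6.17 uninduced in A3, 6.11 and 6.03 in A4, and 6.15 and 5.71 in A5. Their part in the clone differences of Srsf10 and the other genes was not tested.

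Other genes of the splicing machinery were read from 5 lists: U1, U2 and Sm core proteins, the tri-snRNP with helicases and the Prp19 complex, kinases and importers of SR proteins, SR-related proteins, and other RNA-binding splicing regulators. They name 125 genes, of which 116 were measured by 373 probe sets. The lists were chosen with earlier results of these data known, so their p-values are not those of genes picked beforehand. For induction, 0 of the 373 passed in limma, with 176 higher and 197 lower and a median difference of -0.0024. The clone F-test called 5 of them (1.34%, against 2.18% of all probe sets), in the genes Qk, Rbmx and Sf3b3.

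Qk encodes Quaking, a KH-domain protein that controls splicing and mRNA stability, and 3 of its 7 probe sets were called lower in A3. Of these, 1417073_a_at measured 6.81 induced and 6.82 uninduced in A3, against 8.45 and 8.36 in A4, and 8.54 and 8.69 in A5. A3 minus A4 was -1.59 ± 0.09 (SE; F-test adjusted p = 0.000374 in limma), far beyond the gap between arrays of 1 clone. Qk probe sets 1429735_at and 1429736_at were called as well, with clone means of 4.95 and 4.70 in A3, against 6.02 and 5.18 in A4, and 6.21 and 5.29 in A5. The other 4 were not called by the F-test, the brightest, 1451179_a_at, with clone means of 10.70 (A3), 10.98 (A4) and 11.05 (A5) and an adjusted p of 0.137 in limma. A3 was lowest at these too, with 9.28 against 9.70 and 9.77 at 1429318_a_at, 3.71 against 4.24 and 4.05 at 1425597_a_at, and 4.07 against 4.54 and 4.62 at 1441964_at. Rbmx, an hnRNP G gene, was higher in A3 at the dim 1426863_at, with a clone mean of 4.86, against 4.26 (A4) and 4.24 (A5) (F-test adjusted p = 0.0205 in limma). Its other probe sets, the brightest among them, were not called by the F-test.

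At its brightest probe set Sf3b3, a partner of Sf3b1 in the U2 snRNP, had clone means of 11.06 (A3), 10.49 (A4) and 10.78 (A5). The F-test adjusted p was 0.0295 in limma, and the other probe set of Sf3b3 was not called. Between A3 and A4 the pair test called 10 of the 373 (2.68%, against 2.94% of all probe sets), 5 higher and 5 lower in A3. Beside those above, both called probe sets of the SR-related gene Rsrc2 were higher in A3 (9.35 and 10.53, against 8.89 and 10.09 in A4). Luc7l, which encodes a U1-associated protein, was higher at a single called probe set (8.07, against 7.65). Prpf31 of the U4/U6 snRNP was lower at a single called probe set (6.52, against 7.03). The other probe sets of these genes were not called for this pair. Without a call, the smallest F-test p in the lists that held none were those of the SR protein kinase gene Clk3 (7.87 (A3), 7.67 (A4) and 7.55 (A5)), the importer gene Tnpo1 (9.29, 9.03 and 9.11) and the helicase gene Ddx42 (8.41, 8.05 and 8.24).

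A feature that the choice of genes did not use is the base composition of their promoters. RefSeq promoters (GRCm38.p6, 300 bases around the gene start) were at hand for 39 of the 44 genes. The dinucleotide CG, which reads the same on both strands, occurred a median of 28 times in the 300 bases (14 to 52), against a median of 13 over 17492 protein-coding genes, and 10 or more times in all 39, against 57.6% of those genes. Their GC content had a median of 63.3%, against 56.3%. The array values do not bear on these promoters, and the counts are a description.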

How the data were processed

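The 6 arrays are 1 induced and 1 uninduced culture of each of 3 clones, grouped by their labels. The authors summarised raw intensities to log2 RMA values, 1 per probe set, with the affy package of Bioconductor, and these deposited values were used as given. The version used, and which arrays were normalised together, are not given in the sources used here. The 64 control probe sets were left out of all tests, and 45037 were tested with no intensity filter. Probe sets were named by the platform annotation (1 symbol for 34945, several for 932, none for 9160), and all 133 of the splicing genes were found in the RefSeq table through their Entrez identifiers. Another 7 probe sets pair Hnrnpa1 or Hnrnpa3 with near-identical copies and were not used.

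Tests used limma 3.58.1 in R 4.3.3 (lmFit and eBayes, two-sided, Benjamini-Hochberg over all tested probe sets, adjusted p under 0.05). Induction was fitted without a block, as the methods name a t-test and state no pairing. The SEs and the interval given for induction come from this fit. They use limma's variance, drawn toward that of all probe sets, and do not use the pairing of arrays by clone. Clones were compared by the moderated F-test and pairwise contrasts of a model with clone and induction. With 3 arrays per group the number of arrays limits the precision. A replicate number marks a clone, so the numbers pair the samples: once the group means were removed, r over all probe sets between both arrays of a clone was 0.524 (A3), 0.376 (A4) and 0.210 (A5), against -0.407 to 0.0689 between clones. Alternatives were the clone as a replicate block, the methods' t-test, a mean of at least 5, an intensity trend, dropping _x_at and _s_at probe sets, a clone term without induction, 1 probe set per gene, and leaving out arrays or clones. The scripts were tested on simulated data.

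The members and all gene lists were chosen with earlier results of these data known. Named were all probe sets of Hnrnpab and Ddx23, the 8 highest and 8 lowest differences of 1 sign in every clone and averaging 5 or more, the 10 smallest clone F-test p, the 5 genes of widest span among those with 3 or more probe sets, and list genes past the clone F-test or up to 2 per list with the smallest p. Other genes were named to account for every member, and the role groups were drawn after values had been seen.

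For the lists of cell type markers, the 10 ES cell genes had 0 of 17 probe sets called between clones, fibroblast and feeder genes 1 of 16, endoderm genes 2 of 21, neural genes 1 of 13 and trophoblast genes 5 of 14. The share over all probe sets was 2.18%, and the trophoblast calls lie in 2 genes.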

Additional observations from a re-analysis of the deposited data

How the results depend on the processing

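For induction, 0 of the 133 probe sets and 0 of all probe sets were called under every alternative run. These counts describe the table only, since the differences were known when the genes were chosen. With the replicate block the count was also 0, and the smallest limma adjusted p over all probe sets was 0.84. The median difference stayed at 0.0053, which a block cannot change when each clone gives 1 array of each kind. With 1 probe set per gene the median was -0.016, and leaving out arrays or clones gave -0.0055 (without the induced A3 array) to 0.0077.

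For the clones, dropping probe sets that averaged under 5 gave 3 calls among the splicing genes and 1885 among all, with 3 for A3 minus A4 and 2 for A3 minus A5. An intensity trend gave 6 and 2641, with 5 and 4. Leaving out arrays or clones gave 26 (without A3) to 1427 (without A5) calls over all probe sets, among them 248 when induced A3 was dropped, 413 when uninduced A3 was and 633 when uninduced A4 was. A3 minus A4 then gave 0 to 0 among the splicing genes. The cause was not tested.

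Among named differences, 4 Hnrnpab probe sets near 0 changed sign when arrays or clones were left out, with ranges of -0.036 to 0.0076 at 1415914_at, -0.055 to 0.039 at 1431349_at, -0.017 to 0.050 at 1453849_s_at and -0.017 to 0.010 at 1455855_x_at. The others kept their sign, but some came close to 0 without 1 uninduced array: Srsf6 1416720_at at 0.0018 without that of A3, Tra2b 1444509_at at 0.0034 without that of A4, and Srsf3 1438215_at at 0.0040 and Hnrnpl 1424101_at at -0.011 without that of A5. With 3 arrays per group and no clone block, the 95% interval of a difference reached a median of 0.18 to either side among the 133 probe sets.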
